A study of Homo sapiens with 9 samples.

Results

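Heat shock proteins and their partner chaperones were followed in COR-L279 cells treated with the BET bromodomain inhibitor JQ1. Members were taken by gene symbol: HSPA, HSPB, HSPD, HSPE, HSPH, DNAJA, DNAJB and DNAJC followed by a number, HSP90, CCT2 to CCT8, TCP1, HSF1 and HSF2. Of the 17518 genes in the deposited table of normalized counts, 101 symbols matched, and 78 remained after 23 pseudogene rows were left out. They comprised 2 heat shock factors, 3 HSP90 genes, 3 HSP110 genes, 11 HSP70 genes, 2 genes of the mitochondrial HSP60 and HSP10 chaperonin, 4 small heat shock proteins, 40 J proteins (4 DNAJA, 9 DNAJB and 27 DNAJC), 9 genes of the CCT chaperonin and 4 hyphenated symbols (antisense or read-through transcripts). The selection used no expression value.

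Chaperones bind unfolded segments of other proteins, and many of them release these in cycles of ATP hydrolysis. HSP70 proteins receive clients from J proteins, which trigger their ATPase, and let them go with the help of nucleotide exchange factors such as the HSP110 proteins and BAG proteins; HSP90 acts later, on kinases and steroid receptors among others. The CCT chaperonin folds actin and tubulin inside a closed chamber, separate HSP70 and HSP90 proteins serve the endoplasmic reticulum and the mitochondrion, and the transcription factor HSF1 drives the heat-inducible members when unfolded protein accumulates.

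COR-L279 is an established line of small cell lung cancer, of the NEUROD1-driven subtype SCLC-N, and the labels give its genotype as WT. JQ1 is a small molecule that occupies the acetyl-lysine pocket of the BET proteins and displaces them from chromatin. The study compared 3 libraries each from cells given 0.5 µM JQ1, 1.5 µM JQ1 or the solvent DMSO for 24 h; it concerned what BET inhibitors do in this subtype. Total RNA was sequenced from a stranded library, and all groups share 1 cell line and 1 time. The replicates are called biological, but nothing in the labels says that they came from separate cultures, so p-values measure the spread between these libraries.

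Values are the authors' normalized counts unless FPKM (fragments per kilobase of transcript scaled to sequencing depth, the only scale used here to compare genes with each other) is named. Differences are log2 fold changes of normalized count + 1 from 1 limma fit, given with the SE, a pair being at 0.5 µM first and at 1.5 µM second, and a gene is said to rise or fall where its p, adjusted by Benjamini-Hochberg over 17514 genes tested, was under 0.05. Whole reads recovered from the table summed to 60721187 to 88482001 per library, and the 78 members held 1.89% to 2.19% of them. The neuroendocrine markers (NEUROD1, INSM1, CHGA and SYP) were present in every library and summed to 1126 to 1170 FPKM in the 6 JQ1 libraries and 1229 to 1256 FPKM in the 3 DMSO libraries. NEUROD1 stood at 348 to 365 FPKM in JQ1 and 264 to 271 FPKM in DMSO libraries, whereas CHGA stood at 362 to 391 FPKM in JQ1 and 512 to 537 FPKM in DMSO libraries. Endothelial markers summed to at most 0.07 FPKM, with PECAM1 and VWF at 0 in every library. The leukocyte list (PTPRC, CD3E and CD14) summed to 0.07 to 0.16 FPKM in JQ1 libraries and 0.62 to 0.82 FPKM in DMSO libraries, nearly all from CD14. The fibroblast list of 5 genes summed to 4.94 to 11.1 FPKM in JQ1 libraries and 15.5 to 16.5 FPKM in DMSO libraries, mostly from COL1A2, with DCN at 0 in DMSO. Libraries stood apart in a pair of ways. Replicate 2 at 0.5 µM was more than 10% above both other replicates for 22 of the 78 members, against 2 to 5 members for every other library. This was not particular to the members. Over all genes, its reads gave a chi-square per degree of freedom of 26.7 against replicate 1 and 31.0 against replicate 3. Other pairs within a group stood at 3.40 to 7.54. Replicate 3 at 0.5 µM and replicates 1 and 2 at 1.5 µM held H19 at 1476 to 2071 and SLC2A3 at 390.5 to 489 normalized counts, against at most 82.8 and 3.52 in the other 6 libraries. The same 3 libraries held the fibroblast markers LUM at 2.91 to 4.0 FPKM and DCN at 0.40 to 0.41 FPKM, against at most 0.06 and 0.02 FPKM in the other 3 JQ1 libraries, and YAP1 at 0.48 to 0.59 FPKM, against at most 0.07 FPKM. Results were also computed without these 3 libraries. That leaves 1 library at 1.5 µM, assumed to vary like the other groups, so lost calls are given with their fold changes; the part of these markers in the results was not tested.

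Chaperone transcripts moved in both directions under JQ1, and most families held genes that rose and genes that fell. HSP60 and HSP10 of the mitochondrion both fell, and in CCT 7 of 9 genes fell and the only one to rise was CCT6B, at 0.25 FPKM in DMSO. Of the 78 members, 24 rose and 33 fell at 0.5 µM, and the other 21 did not pass the test. All of them entered the fit, and 73.1% were called, against 70% of all genes tested (35.3% higher and 34.7% lower). At 1.5 µM, 23 rose, 35 fell and 20 did not pass, which is 74.4% of the members against 73.1% of all genes tested (36.9% higher and 36.2% lower). The share of members that changed was thus close to the share of the whole transcriptome at either dose. Without replicate 2 at 0.5 µM the counts at that dose were 23 and 34, and without the 3 libraries that held H19 they were 23 and 31 at 0.5 µM and 21 and 30 at 1.5 µM. In a bulk sample, fewer cells with a transcript and less of it per cell cannot be told apart.

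The same members were called at both doses in most cases. A total of 22 members rose at both doses, 32 fell at both, and none was called in opposite directions. Both comparisons use the same DMSO libraries, so this is no independent repeat. Of all genes tested, 70% were called at 0.5 µM and 73.1% at 1.5 µM. The share of all genes called alike at both doses was not computed. The median log2 fold change of the 78 members was -0.05 at 0.5 µM and -0.09 at 1.5 µM, beside -0.01 and -0.003 over all genes tested. Changes of at least 2-fold were found in 8 members at 0.5 µM and 10 at 1.5 µM, while 14.9% and 18.8% of all genes changed that much. The groups did not overlap for 57 members at 0.5 µM (72.6% of all genes) and 67 at 1.5 µM (81.7% of all genes). By summed level, the members stood at 10856 ± 93.7 FPKM in DMSO, 9564 ± 585 FPKM at 0.5 µM and 9240 ± 31.1 FPKM at 1.5 µM (SD, n = 3 each). The size of this decrease depended on the scale. In FPKM the sums were 0.881 and 0.851 times DMSO, and in normalized counts 0.935 and 0.938 times DMSO.

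**Figure D1:**
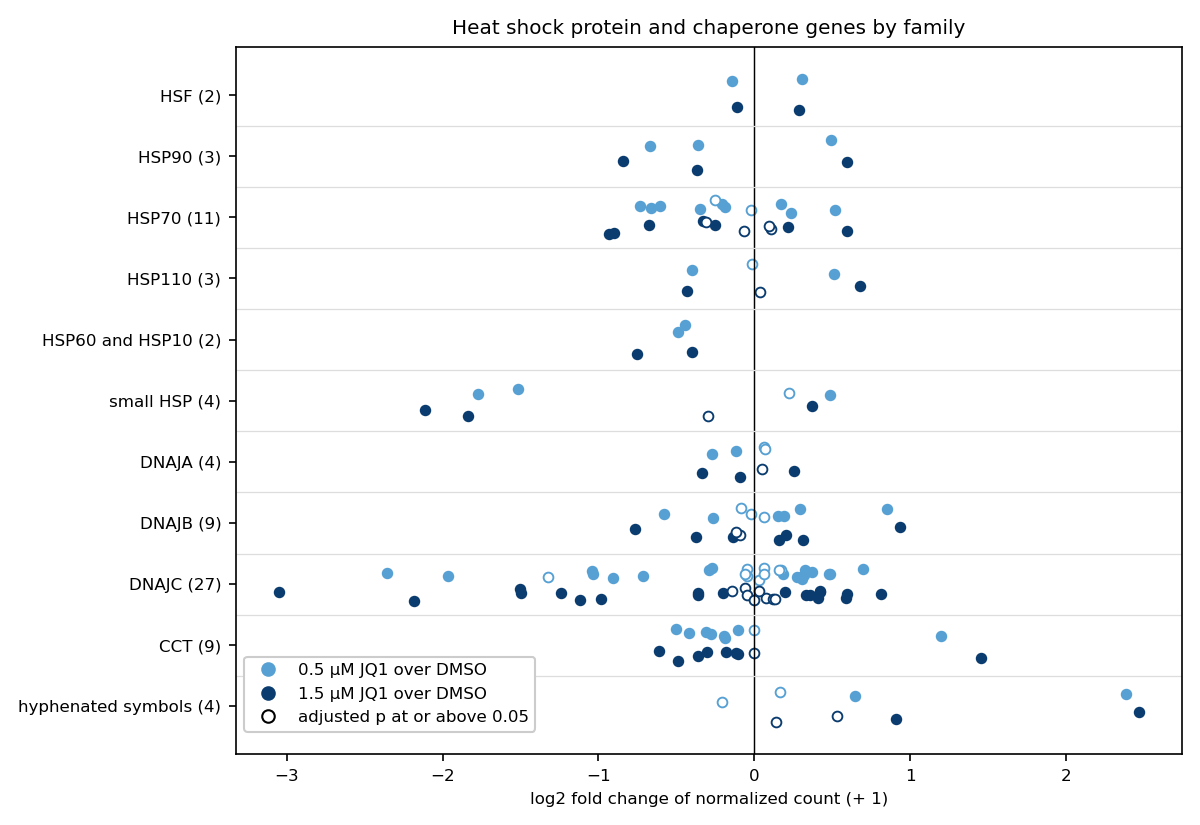
Log2 fold change of normalized count + 1 over DMSO (x axis) for the 78 members, 1 row per family with its number of genes, at 0.5 µM JQ1 (light blue) and 1.5 µM JQ1 (dark blue); open circles did not pass the test. Families with more than 2 genes had points on both sides of 0, except the hyphenated symbols at 1.5 µM, which all lay above it, and the lowest point is DNAJC22 at -3.05.

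In DMSO cells the chaperones spanned a wide range of abundance. HSPA8, the constitutive cytosolic HSP70, led them at 1728 ± 43.3 FPKM (SD, n = 3) and ranked 41 among the 57820 genes of the FPKM table. CCT5 followed at 1350 ± 13.5 FPKM, then HSP90AA1 at 1185 ± 16.6, HSP90AB1 at 979 ± 7.17 and HSPD1 at 705 ± 13.1 FPKM, each step larger than the SDs of its neighbours. A further 15 members lay between 100 and 500 FPKM, 33 between 10 and 100, 17 between 1 and 10, and 8 below 1 FPKM. Another 14 symbols that match the selection are in the FPKM table only and reached at most 0.46 FPKM. Among these was HSPA6, a strictly stress-induced HSP70 that is a usual sign of a heat shock response: it was at 0.07 to 0.17 FPKM in JQ1 libraries and 0.03 to 0.07 FPKM in DMSO libraries.

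The 2 heat shock factors went opposite ways by small amounts. HSF1, the master regulator of the heat response, had 5199, 5104 and 5082 normalized counts in DMSO, 4754, 4394 and 4777 at 0.5 µM and 4846, 4592 and 4776 at 1.5 µM. All 6 JQ1 libraries were below all 3 DMSO libraries. It fell at 0.5 µM (-0.14 ± 0.04, adjusted p = 0.00714) and at 1.5 µM (-0.11 ± 0.04, adjusted p = 0.0222). The higher dose no longer passed without the 3 libraries that held H19 (-0.10, adjusted p = 0.18) and without DMSO replicate 1 (0.0684), DMSO replicate 2 (0.0514) or 1.5 µM replicate 2 (0.0923). HSF2, a related factor that can form mixed trimers with HSF1, rose (0.31 ± 0.06 and 0.29 ± 0.06, adjusted p = 0.00102 and 0.00145). Its counts were 5355, 5200 and 4972 in DMSO, 6024, 7162 and 6080 at 0.5 µM and 6235, 6385 and 6309 at 1.5 µM, with no overlap between JQ1 and DMSO.

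Members listed as heat-inducible did not move as a group. The list also holds HSPA8 and HSP90AB1, which are constitutive forms. Of 13 listed members 12 were in the table (HSPA6 was not). At 0.5 µM 5 of them rose and 6 fell, and at 1.5 µM 4 rose and 6 fell. HSP90AA1, HSPA1B, HSPA4L and DNAJB1 rose at both doses. HSPH1, HSPB1, HSPD1 and HSPE1 were lower at both, as were the constitutive HSPA8 and HSP90AB1. The share of the list called was 91.7% at 0.5 µM and 83.3% at 1.5 µM, against 70% and 73.1% of all genes tested. Among all genes, 35.3% and 36.9% were higher, and 34.7% and 36.2% lower. DNAJA1, a J protein of the cytosol, passed at neither dose, with log2 fold changes of 0.06 ± 0.05 and 0.05 ± 0.05. A second list of heat-responsive genes, 10 of 11 of them in the table, shares HSPB1 with the chaperones and STIP1, AHSA1 and CHORDC1 with the HSP90 co-chaperones; 2 of the 10 rose and 5 fell at either dose. The largest change in it outside the members was in SERPINH1, the collagen chaperone HSP47, which fell (-1.19 ± 0.05 and -1.39 ± 0.05, adjusted p = 1.07e-08 and 2.12e-09).

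The cytosolic HSP90 pair diverged. HSP90AA1, the inducible form, had 254528, 261420 and 255080 normalized counts in DMSO, 350329, 393680 and 340259 at 0.5 µM and 381521, 389514 and 393478 at 1.5 µM. Every JQ1 library exceeded every DMSO library, and the increase was 0.49 ± 0.05 at 0.5 µM and 0.59 ± 0.05 at 1.5 µM (adjusted p = 8.02e-06 and 1.34e-06), or 1.40-fold and 1.51-fold. HSP90AB1, the constitutive form, had 161717, 162603 and 160701 in DMSO, 128124, 123394 and 125822 at 0.5 µM and 125085, 125321 and 124938 at 1.5 µM. Here every JQ1 library lay below every DMSO library, with log2 fold changes of -0.36 ± 0.03 and -0.37 ± 0.03 (adjusted p = 7.02e-07 and 4.29e-07). In FPKM, the ratio of HSP90AA1 to HSP90AB1 was 1.21 ± 0.01 in DMSO, 2.18 ± 0.20 at 0.5 µM and 2.36 ± 0.04 at 1.5 µM (SD, n = 3 each). The sum of both genes was 2164 ± 21.7 FPKM in DMSO, 2356 ± 113 FPKM at 0.5 µM and 2443 ± 15.8 FPKM at 1.5 µM.

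Both genes have letters matching the heat shock element, the motif read by HSF1, near their start. The RefSeq windows (GRCh38.p14, 250 bases before to 50 after the start) are printed 5′ to 3′ on the gene's strand because the pair carries the same motif and moved in opposite directions. Capitals mark TTCNNGAANNTTC on either strand. HSP90AA1 is on the minus strand at chr14:102086995-102087294, with 1 match that begins 88 bases before the start, and HSP90AB1 on the plus strand at chr6:44247693-44247992, with 2 matches that begin 165 and 112 bases before it.
HSP90AA1: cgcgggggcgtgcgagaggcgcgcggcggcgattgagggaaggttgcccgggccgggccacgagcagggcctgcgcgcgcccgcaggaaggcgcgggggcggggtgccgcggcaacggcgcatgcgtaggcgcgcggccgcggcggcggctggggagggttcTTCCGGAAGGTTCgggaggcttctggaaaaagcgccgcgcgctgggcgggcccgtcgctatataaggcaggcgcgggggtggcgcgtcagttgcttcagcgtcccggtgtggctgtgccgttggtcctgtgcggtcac
HSP90AB1: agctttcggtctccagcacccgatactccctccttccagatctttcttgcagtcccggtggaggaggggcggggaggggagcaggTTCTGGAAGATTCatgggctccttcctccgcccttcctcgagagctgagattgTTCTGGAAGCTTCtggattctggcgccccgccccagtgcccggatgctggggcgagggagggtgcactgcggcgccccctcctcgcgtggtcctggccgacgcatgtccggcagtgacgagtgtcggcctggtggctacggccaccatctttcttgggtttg

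The same letters occur in 172 of all 35116 windows (0.49%), a count by window, whereas members are counted by gene. Among the 69 members with a window they occur in 6: HSP90AA1, HSP90AB1, HSPA8, HSPD1, DNAJA1 and DNAJB6. Of these 6 genes, HSP90AA1 and DNAJB6 rose at both doses, HSP90AB1, HSPA8 and HSPD1 fell at both, and DNAJA1 passed at neither.

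**Figure D2:**
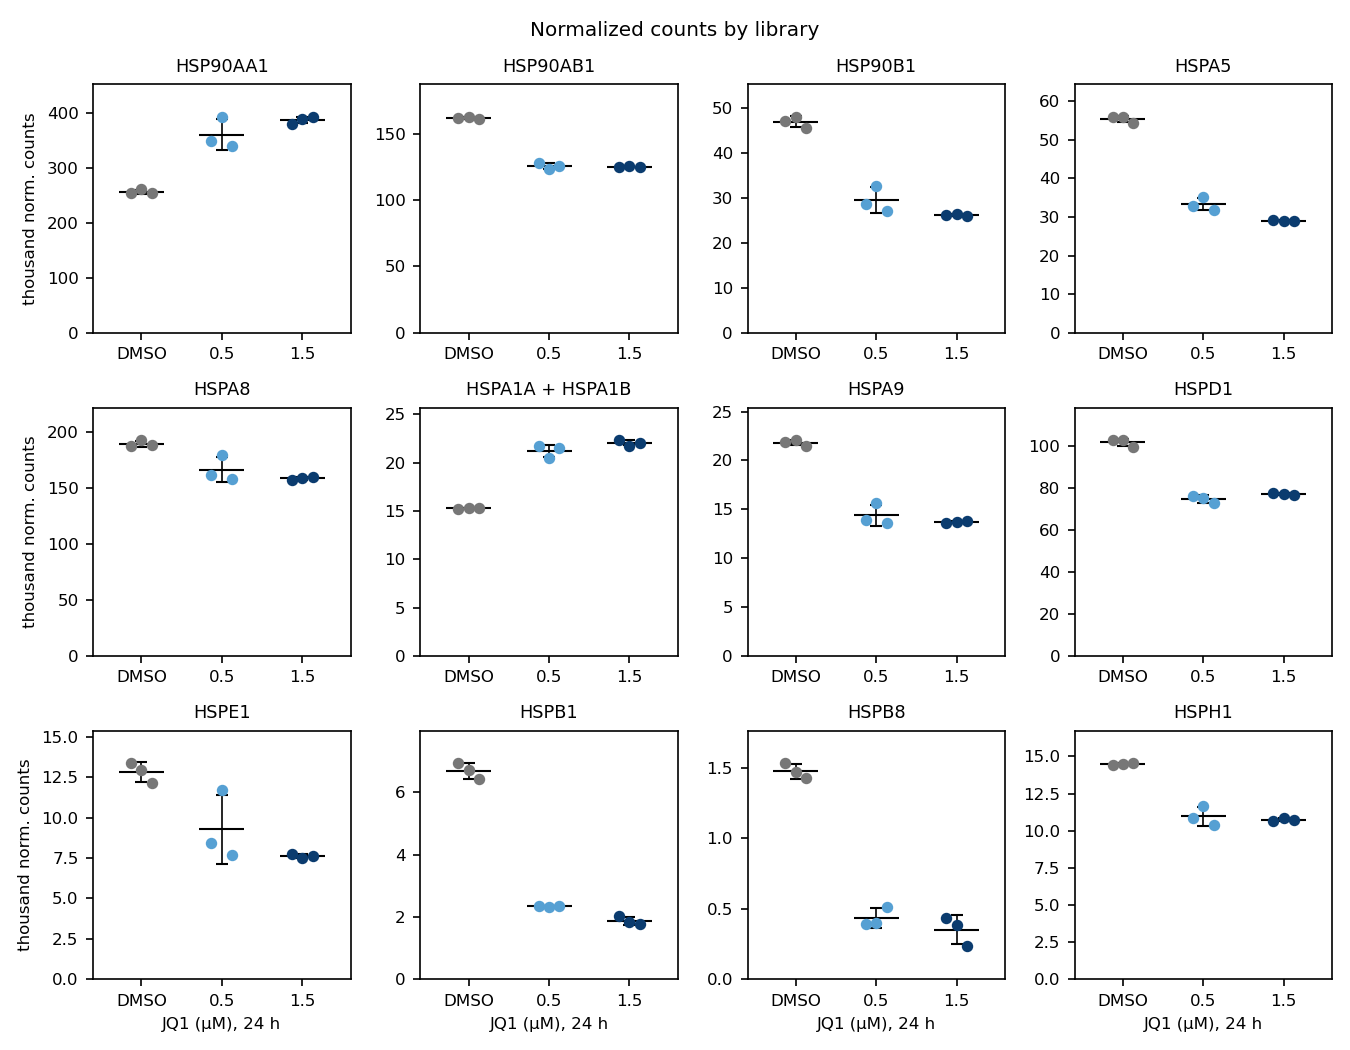
Normalized counts, drawn divided by 1000 (y axis from 0), of 12 members or sums in each library (points), with the group mean and SD (lines), for DMSO, 0.5 µM and 1.5 µM JQ1. HSP90AA1 and the sum of HSPA1A and HSPA1B are higher in all JQ1 libraries, the other 10 panels are lower, and replicate 2 at 0.5 µM is the outlying point for HSPE1.

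The HSP70 family contained both signs. HSPA8 had 186693, 192400 and 187648 normalized counts in DMSO, 161124, 179130 and 158116 at 0.5 µM and 157032, 158845 and 159723 at 1.5 µM. The groups did not overlap, although replicate 2 at 0.5 µM was closest to DMSO. It fell at both doses (-0.19 ± 0.04 and -0.25 ± 0.04, adjusted p = 0.00328 and 0.000404), but at the lower dose it did not pass without the 3 libraries that held H19 (-0.15, adjusted p = 0.0658). Counting the 8 pseudogene rows of HSPA8 with it left the ratio over DMSO at 0.838 at 1.5 µM, against 0.839 for the gene alone.

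The inducible HSP70 genes HSPA1A and HSPA1B are near-identical copies, so the split of reads between them is uncertain and their sum is the safer quantity. The sum was 15227, 15274 and 15340 normalized counts in DMSO, 21693, 20471 and 21506 at 0.5 µM and 22348, 21781 and 22090 at 1.5 µM, which is 1.39 and 1.44 times the DMSO mean. All JQ1 libraries were above all DMSO libraries, with a spread within groups far smaller than the gap. Taken singly, HSPA1B rose (0.52 ± 0.03 and 0.59 ± 0.03, adjusted p = 1.39e-07 and 3.47e-08). HSPA1A rose by 0.17 ± 0.04 at 0.5 µM (adjusted p = 0.00539) and was at 0.09 ± 0.04 at 1.5 µM (adjusted p = 0.0735). At 1.5 µM it was called in 3 of 23 alternatives. These were the fit to the 6 libraries compared (adjusted p = 0.0368), library weights (0.0193) and the fit without replicate 2 at 0.5 µM (0.0418).

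The less abundant HSP70 genes moved in different directions. HSPA2, best known from the testis, had 966, 988 and 1044 counts in DMSO, 637, 609 and 642 at 0.5 µM and 507, 585 and 518 at 1.5 µM, without overlap. It fell (-0.67 ± 0.07 and -0.90 ± 0.07, adjusted p = 5.74e-06 and 4.19e-07). HSPA14, which acts at the ribosome with the J protein DNAJC2, fell (-0.35 ± 0.04 and -0.33 ± 0.04, adjusted p = 3.68e-05 and 4.83e-05). HSPA13, a microsomal HSP70, rose (0.23 ± 0.03 and 0.21 ± 0.03, adjusted p = 2.45e-05 and 4.31e-05). HSPA12A fell at 0.5 µM (-0.21 ± 0.06, adjusted p = 0.0104, and 0.0503 without DMSO replicate 2) and was at -0.07 ± 0.06 at 1.5 µM (adjusted p = 0.344, and 0.046 with library weights), and HSPA12B and HSPA1L passed at neither dose; all 3 were below 2 FPKM in DMSO.

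The HSP110 genes, whose proteins exchange nucleotide on HSP70, took 3 courses. HSPH1 (HSP105) had 14418, 14468 and 14540 counts in DMSO, 10868, 11674 and 10413 at 0.5 µM and 10676, 10838 and 10712 at 1.5 µM. It fell with no overlap (-0.40 ± 0.04 and -0.43 ± 0.04, adjusted p = 5.42e-06 and 2.34e-06). HSPA4L had 3819, 4024 and 3949 counts in DMSO, 5670, 5547 and 5566 at 0.5 µM and 6121, 6329 and 6416 at 1.5 µM, and here the 3 groups were all separate. It rose (0.51 ± 0.03 and 0.68 ± 0.03, adjusted p = 2.29e-07 and 1.8e-08). HSPA4 passed at neither dose, at -0.02 ± 0.03 and 0.04 ± 0.03.

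Of 8 members listed for the endoplasmic reticulum, 4 (HSPA5, HSP90B1, DNAJB11 and DNAJC10) fell at both doses. HSPA13 and DNAJC1 rose at both, and DNAJB9 and DNAJC3 passed at neither. This is 75% called at either dose, near the 70% and 73.1% of all genes tested. DNAJB12, of the membrane of this compartment, was not in the list. HSPA5 (BiP), the HSP70 of this compartment, had 55809, 55960 and 54380 normalized counts in DMSO, 32931, 35118 and 31905 at 0.5 µM and 29106, 28931 and 28847 at 1.5 µM. The 3 groups did not overlap, and it fell (-0.73 ± 0.04 and -0.94 ± 0.04, adjusted p = 3.25e-08 and 3.57e-09). HSP90B1 (GRP94), the HSP90 of the same compartment, had 47102, 47928 and 45486 in DMSO, 28676, 32660 and 27128 at 0.5 µM and 26020, 26291 and 26007 at 1.5 µM. Again no group overlapped another, and the log2 fold changes were -0.67 ± 0.06 and -0.84 ± 0.06 (adjusted p = 1.95e-06 and 2.42e-07).

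The J proteins that serve HSPA5 differed among themselves. DNAJB11, which hands unfolded secretory proteins to HSPA5, had 8403, 8308 and 8277 counts in DMSO, 5260, 6213 and 5274 at 0.5 µM and 4952, 4821 and 4955 at 1.5 µM, and fell (-0.58 ± 0.06 and -0.76 ± 0.06, adjusted p = 5.77e-06 and 5.26e-07). DNAJC10, a disulfide reductase, fell (-0.29 ± 0.04 and -0.36 ± 0.04, adjusted p = 5.24e-05 and 7.99e-06). DNAJC1 rose (0.37 ± 0.06 and 0.35 ± 0.06, adjusted p = 0.000465 and 0.000523). DNAJB9 and DNAJC3, both of them known targets of the unfolded protein response, were at -0.09 ± 0.06 and -0.05 ± 0.06 at 0.5 µM and at -0.09 ± 0.06 and 0.08 ± 0.06 at 1.5 µM.

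HSPA5 and HSP90B1 are also the only ones of the 69 members with a window to match the ER stress response element, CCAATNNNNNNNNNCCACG on either strand, and their windows are printed because the pair fell together. The element occurs in 27 of the 35116 windows (0.0769%), a count by window and not by gene. Capitals mark it. HSPA5 is on the minus strand at chr9:125241294-125241593 (GRCh38.p14) with 1 match that begins 66 bases before the start. HSP90B1 is on the plus strand at chr12:103930160-103930459 with 2 matches that begin 194 and 89 bases before it, the nearer on the opposite strand.
HSPA5: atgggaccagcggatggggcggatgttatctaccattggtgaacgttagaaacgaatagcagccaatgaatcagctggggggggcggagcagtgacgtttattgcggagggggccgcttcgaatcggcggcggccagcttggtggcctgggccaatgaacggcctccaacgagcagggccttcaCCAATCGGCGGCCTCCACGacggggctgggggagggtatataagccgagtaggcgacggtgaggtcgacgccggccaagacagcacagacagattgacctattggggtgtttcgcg
HSP90B1: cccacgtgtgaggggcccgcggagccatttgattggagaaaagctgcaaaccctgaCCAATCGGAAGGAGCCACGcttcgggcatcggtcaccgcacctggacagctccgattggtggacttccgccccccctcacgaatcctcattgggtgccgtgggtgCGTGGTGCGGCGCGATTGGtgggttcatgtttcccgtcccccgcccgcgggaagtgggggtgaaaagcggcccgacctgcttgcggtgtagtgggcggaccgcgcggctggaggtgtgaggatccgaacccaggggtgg

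Other genes tied to folding in this compartment, among them XBP1, ATF6, ERN1, HERPUD1 and SEL1L, were read from a separate list of 15. At 0.5 µM 2 were higher and 11 lower, and at 1.5 µM 2 were higher and 12 lower. That is 86.7% and 93.3% called, against 70% and 73.1% of all genes tested (34.7% and 36.2% lower). The median log2 fold changes were -0.51 and -0.61, beside -0.01 and -0.003 over all genes tested. XBP1, a transcription factor of the unfolded protein response, fell (-0.93 ± 0.03 and -1.10 ± 0.03, adjusted p = 3.18e-09 and 5.49e-10). Its counts were 8106, 8428 and 8209 in DMSO, 4319, 4403 and 4271 at 0.5 µM and 3847, 3780 and 3924 at 1.5 µM, with every group separate. ERN1 (IRE1), the sensor that splices XBP1 mRNA, rose (0.91 ± 0.07 and 1.17 ± 0.07, adjusted p = 1.56e-06 and 1.68e-07). HYOU1 passed at neither dose and SEL1L rose at both.

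**Figure D3:**
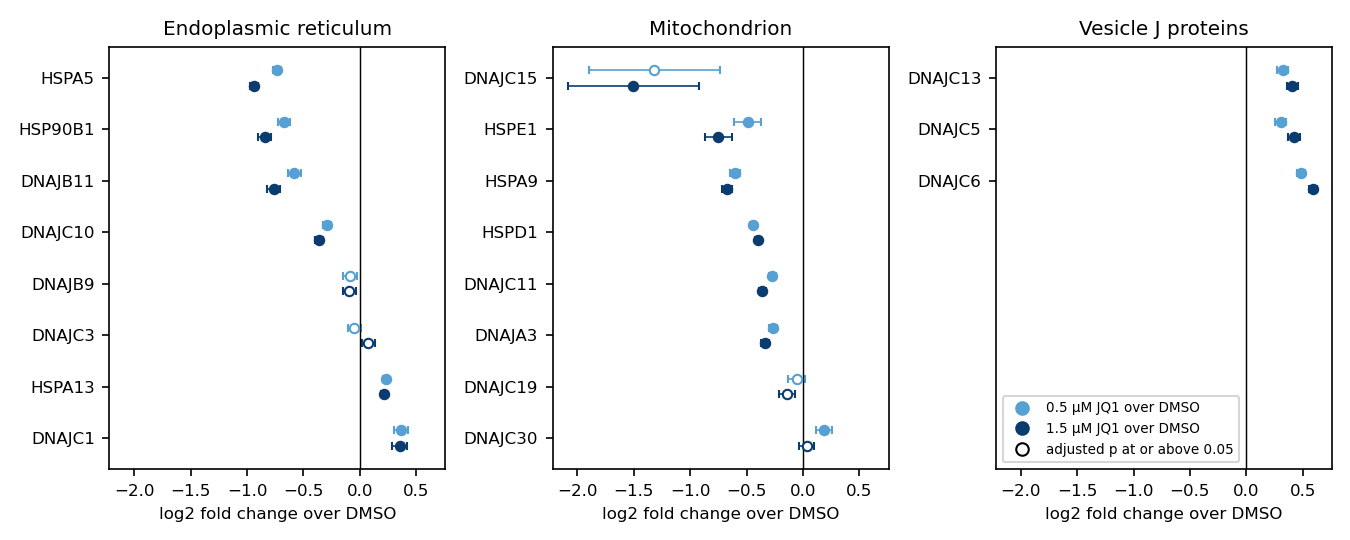
Log2 fold change over DMSO with SE (x axis) for members placed in the endoplasmic reticulum (8 genes), the mitochondrion (8 genes) and vesicle traffic (3 genes) at 0.5 µM (light) and 1.5 µM (dark) JQ1; open circles did not pass the test. HSPA5 and HSP90B1 lead the first panel at -0.94 and -0.84, and all 3 vesicle J proteins lie right of 0. Among all genes tested, 35.3% were higher at 0.5 µM and 36.9% at 1.5 µM.

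Of 8 mitochondrial members, 5 fell and 1 rose at 0.5 µM, where 34.7% of all genes tested fell and 35.3% rose. At 1.5 µM 6 fell and none rose, the sixth being the scarce DNAJC15, while 36.2% of all genes fell and 36.9% rose. HSPD1 (HSP60) had 102587, 102690 and 99602 normalized counts in DMSO, 76276, 75262 and 72689 at 0.5 µM and 77322, 76947 and 76612 at 1.5 µM. JQ1 libraries were all below DMSO libraries, and those at 0.5 µM were all below those at 1.5 µM. It fell (-0.44 ± 0.03 and -0.40 ± 0.03, adjusted p = 2.62e-07 and 3.97e-07). HSPE1 (HSP10), the lid of the HSP60 chamber, had 13362, 12957 and 12154 in DMSO, 8441, 11692 and 7680 at 0.5 µM and 7758, 7477 and 7624 at 1.5 µM. Replicate 2 at 0.5 µM stood near the DMSO range while its other replicates did not. HSPE1 fell at 0.5 µM (-0.49 ± 0.12, adjusted p = 0.0042, and -0.67 without that library) and at 1.5 µM (-0.75 ± 0.12, adjusted p = 0.000221); on FPKM values it did not pass at the lower dose (adjusted p = 0.0861).

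The HSP70 arm of the mitochondrion fell with them. HSPA9 (mortalin), which pulls precursors through the inner membrane, had 21865, 22078 and 21518 counts in DMSO, 13935, 15598 and 13620 at 0.5 µM and 13558, 13657 and 13814 at 1.5 µM. No JQ1 library reached the DMSO range, and the log2 fold changes were -0.60 ± 0.05 and -0.67 ± 0.05 (adjusted p = 7.93e-07 and 2.4e-07). Its J protein DNAJA3 fell (-0.27 ± 0.04 and -0.34 ± 0.04, adjusted p = 8.66e-05 and 1.23e-05), and DNAJC11 (-0.27 ± 0.03 and -0.36 ± 0.03, adjusted p = 2.94e-05 and 2.67e-06). DNAJC19 passed at neither dose, and DNAJC30 rose at 0.5 µM only (0.18 ± 0.07, adjusted p = 0.0323, a call lost in 7 of 23 alternatives). DNAJC15 was at 0.26 FPKM in DMSO and entered 21 alternatives. It was at -1.32 at 0.5 µM (adjusted p = 0.0641, called in 6 alternatives) and -1.50 at 1.5 µM (adjusted p = 0.0374, lost in 6). From a list of 10 other genes of mitochondrial protein quality control, 1 rose and 5 fell at either dose. The 60% called was below the 70% and 73.1% of all genes tested. The largest change was in CLPP, the proteolytic subunit of the matrix protease ClpXP, which fell (-1.32 ± 0.04 and -1.70 ± 0.04, adjusted p = 2.55e-09 and 2.81e-10), followed by TIMM44, which tethers HSPA9 to the import channel, at -0.66 ± 0.04 and -0.75 ± 0.04 (adjusted p = 7.62e-08 and 2e-08).

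Subunits of the CCT chaperonin fell by unequal amounts. Each ring of the mature complex is built from 8 different subunits. TCP1, CCT3, CCT4, CCT5, CCT6A, CCT7 and CCT8 fell at both doses, and CCT2 did not pass at either. Summed over these 8 genes, the level was 3404 ± 47.9 FPKM in DMSO, 2705 ± 103 FPKM at 0.5 µM and 2602 ± 2.98 FPKM at 1.5 µM (SD, n = 3 each).

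CCT3 and CCT5 fell most among them. CCT3 had 55610, 55865 and 54646 normalized counts in DMSO, 38192, 41068 and 38161 at 0.5 µM and 36185, 36590 and 36060 at 1.5 µM, with the 3 groups separate. Its log2 fold changes were -0.50 ± 0.03 and -0.61 ± 0.03 (adjusted p = 2.79e-07 and 4.39e-08). CCT5 had 127560, 126690 and 124651 in DMSO, 93085, 98536 and 91414 at 0.5 µM and 89741, 89887 and 90273 at 1.5 µM, again with no overlap, and fell (-0.42 ± 0.03 and -0.49 ± 0.03, adjusted p = 9.3e-07 and 2.09e-07). CCT4 fell (-0.31 ± 0.04 and -0.36 ± 0.04, adjusted p = 3.89e-05 and 9.88e-06), and CCT6A (-0.28 ± 0.03 and -0.30 ± 0.03, adjusted p = 1.25e-05 and 4.99e-06).

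Smaller decreases were found for CCT8, TCP1 and CCT7. CCT8 fell (-0.19 ± 0.04 and -0.18 ± 0.04, adjusted p = 0.00234 and 0.00252). TCP1 fell (-0.19 ± 0.03 and -0.11 ± 0.03, adjusted p = 0.000285 and 0.0101), the second call being lost without the 3 libraries that held H19, at a like fold change (-0.12, adjusted p = 0.121). CCT7 fell (-0.10 ± 0.04 and -0.12 ± 0.04, adjusted p = 0.028 and 0.015). It lost its call in 8 of the 23 alternatives run at 0.5 µM and in 2 at 1.5 µM. CCT2 had 24667, 24416 and 23977 counts in DMSO, 23926, 25691 and 23232 at 0.5 µM and 24537, 24320 and 24077 at 1.5 µM, so its groups overlapped throughout (-0.005 ± 0.04 and -0.002 ± 0.04). The composition shifted accordingly: CCT5 made up 39.7% ± 0.18 of the summed FPKM in DMSO, 36.3% ± 0.15 at 0.5 µM and 35.4% ± 0.28 at 1.5 µM. CCT2 made up 5.75% ± 0.04 in DMSO, 7.28% ± 0.26 at 0.5 µM and 7.35% ± 0.11 at 1.5 µM.

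**Figure D4:**
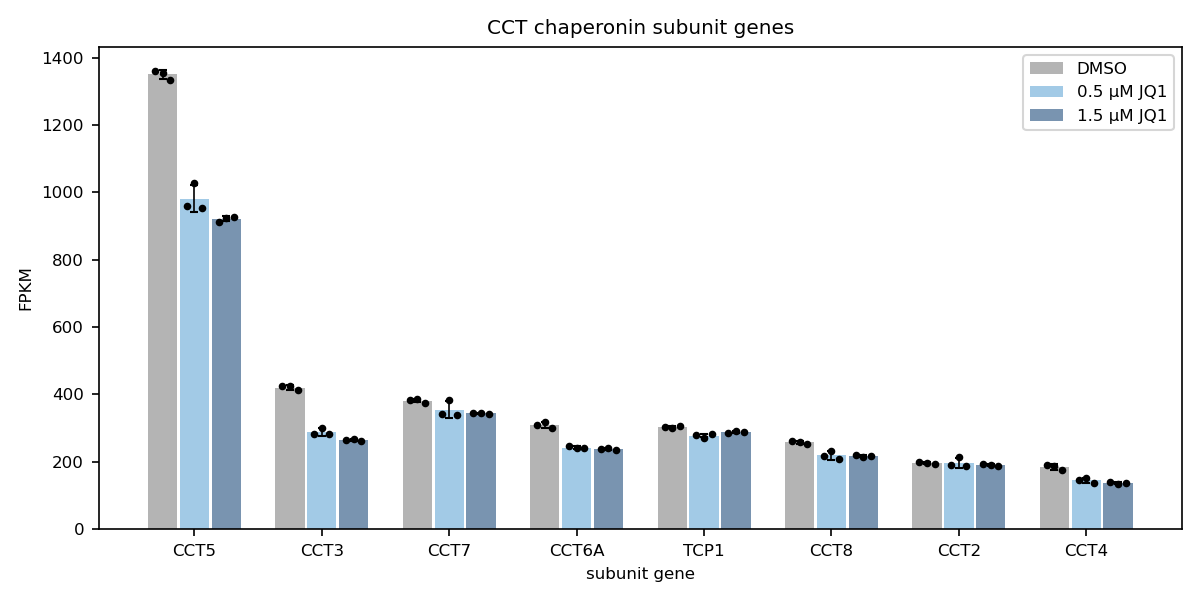
FPKM (y axis from 0) of the 8 CCT subunit genes, ordered by level in DMSO, with bars for group means, error bars for SD and points for the 3 libraries of DMSO (grey), 0.5 µM (light blue) and 1.5 µM (dark blue) JQ1. CCT5 stands highest at 1350 FPKM in DMSO and 921 FPKM at 1.5 µM, and the bars of CCT2 are level.

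CCT6B, a subunit known from the testis, was at 0.25 FPKM in DMSO. It rose (1.19 ± 0.21 and 1.45 ± 0.21, adjusted p = 0.000407 and 8.31e-05), but its DMSO libraries held only 21.0 to 28.4 normalized counts. Prefoldin, the complex that delivers actin and tubulin to CCT, was read from a list of 8 genes that also holds the CCT regulators PDCL and PDCL3. The lower dose had 1 higher and 2 lower, the higher dose 1 higher and 5 lower. That is 37.5% and 75% called, against 70% and 73.1% of all genes tested. PFDN6 fell (-0.36 ± 0.09 and -0.60 ± 0.09, adjusted p = 0.00482 and 0.000133). PFDN4 was at -0.20 ± 0.12 at 0.5 µM (adjusted p = 0.15, and 2.03e-05 without replicate 2 at that dose) and fell at 1.5 µM (-0.54 ± 0.12, adjusted p = 0.00161).

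Among members above 100 FPKM in DMSO, the small heat shock protein HSPB1 fell most. HSPB1 (HSP27), which keeps unfolding proteins soluble without ATP, had 6938, 6731 and 6433 normalized counts in DMSO, 2362, 2311 and 2346 at 0.5 µM and 2018, 1826 and 1779 at 1.5 µM. The 3 groups were separate, and it fell (-1.52 ± 0.05 and -1.84 ± 0.05, adjusted p = 3.02e-09 and 4.64e-10), to 0.349 and 0.280 times DMSO. HSPB8, which works with BAG3 in selective autophagy, had 1530, 1465 and 1423 in DMSO, 391, 396 and 514 at 0.5 µM and 436, 381 and 235 at 1.5 µM. Both JQ1 groups were far below DMSO but overlapped each other, and the log2 fold changes were -1.77 ± 0.19 and -2.11 ± 0.19 (adjusted p = 1.43e-05 and 2.84e-06). BAG3 itself was at -0.03 ± 0.05 and 0.01 ± 0.05. HSPB11, named in this series although its product is a subunit of intraflagellar transport (IFT25), rose (0.49 ± 0.08 and 0.37 ± 0.08, adjusted p = 0.000411 and 0.00243); without the 3 libraries that held H19 it was at 0.35 at 1.5 µM and did not pass (adjusted p = 0.0557). HSPB6 passed at neither dose.

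The J proteins carried changes of both signs in every subfamily at 1.5 µM. Among the 4 DNAJA genes DNAJA2 and DNAJA3 fell at both doses and DNAJA4 rose at 1.5 µM, by 0.25 ± 0.05 (adjusted p = 0.00121). DNAJA2 moved little (-0.12 ± 0.04 and -0.09 ± 0.04, adjusted p = 0.0145 and 0.0337). It was no longer called in 2 of the 23 alternatives run at 0.5 µM and in 8 at 1.5 µM. Of the 9 DNAJB genes, the lower dose had 4 higher and 2 lower and the higher dose 4 higher and 3 lower. This is 66.7% and 77.8% called, against 70% and 73.1% of all genes tested. DNAJB4, a cytosolic relative of DNAJB1, had 578, 626 and 583 counts in DMSO, 1011, 1224 and 1002 at 0.5 µM and 1142, 1126 and 1147 at 1.5 µM. Every JQ1 library was well above DMSO, and it rose (0.85 ± 0.08 and 0.93 ± 0.08, adjusted p = 2.77e-06 and 1e-06). DNAJB1 (HSP40), the main partner of inducible HSP70, rose (0.19 ± 0.04 and 0.20 ± 0.04, adjusted p = 0.00109 and 0.000522), and DNAJB6, a suppressor of polyglutamine aggregation, (0.29 ± 0.04 and 0.31 ± 0.04, adjusted p = 6.62e-05 and 3.39e-05). DNAJB12, a J protein of the endoplasmic reticulum membrane, fell (-0.26 ± 0.05 and -0.37 ± 0.05, adjusted p = 0.000511 and 3.26e-05).

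DNAJC genes had the widest range, with 10 higher and 8 lower at 0.5 µM and 9 higher and 10 lower at 1.5 µM, of 27. The share called was 66.7% and 70.4%, close to the 70% and 73.1% of all genes tested. DNAJC22 had 256, 281 and 264 counts in DMSO, 38.4, 47.0 and 74.4 at 0.5 µM and 34.0, 28.4 and 31.8 at 1.5 µM, every group separate. It fell (-2.36 ± 0.22 and -3.05 ± 0.22, adjusted p = 3.9e-06 and 3.91e-07), the largest decrease of any member. DNAJC17, tied to splicing, had 433, 437 and 392 in DMSO, 173, 228 and 213 at 0.5 µM and 143, 150 and 152 at 1.5 µM, and fell (-1.04 ± 0.11 and -1.50 ± 0.11, adjusted p = 8.87e-06 and 4.06e-07).

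DNAJC2, which sits on the ribosome with HSPA14, had 3656, 3554 and 3478 in DMSO, 1627, 2016 and 1609 at 0.5 µM and 1484, 1518 and 1522 at 1.5 µM. It fell (-1.03 ± 0.08 and -1.24 ± 0.08, adjusted p = 6.06e-07 and 1.06e-07), so both genes of the pair were lower, DNAJC2 by more. DNAJC12, the helper of the aromatic amino acid hydroxylases, had 2559, 2585 and 2372 in DMSO, 1278, 1523 and 1229 at 0.5 µM and 1137, 1179 and 1149 at 1.5 µM, and fell (-0.90 ± 0.07 and -1.12 ± 0.07, adjusted p = 1.42e-06 and 2e-07). DNAJC7, which binds both HSP70 and HSP90, fell (-0.71 ± 0.05 and -0.98 ± 0.05, adjusted p = 6.52e-07 and 3.93e-08). In these 3 genes no library of one group entered the range of another.

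Rising DNAJC genes included all 3 placed in vesicle traffic, a short list chosen with earlier results of these data known. Among all genes tested, 35.3% were higher at 0.5 µM and 36.9% at 1.5 µM. DNAJC6 (auxilin), which strips clathrin from vesicles with HSPA8, had 9189, 9470 and 9898 counts in DMSO, 13182, 13471 and 13237 at 0.5 µM and 13986, 14528 and 14483 at 1.5 µM, and rose (0.48 ± 0.03 and 0.59 ± 0.03, adjusted p = 3.99e-07 and 6.06e-08). DNAJC5, the cysteine string protein of synaptic vesicles, rose (0.30 ± 0.05 and 0.42 ± 0.05, adjusted p = 0.000343 and 2.39e-05). The endosomal DNAJC13 rose (0.32 ± 0.05 and 0.41 ± 0.05, adjusted p = 0.000177 and 2.38e-05). Beyond these, DNAJC21, a factor of large ribosomal subunit assembly, rose (0.48 ± 0.03 and 0.59 ± 0.03, adjusted p = 3.71e-07 and 5.63e-08), and DNAJC9, a histone co-chaperone, (0.27 ± 0.03 and 0.33 ± 0.03, adjusted p = 3.05e-05 and 5.48e-06).

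The 4 hyphenated symbols are uncertain, because each overlaps a coding gene and no source used here states the strand setting of the counts. DNAJC3-AS1 rose (0.65 ± 0.09 and 0.91 ± 0.09, adjusted p = 6.73e-05 and 3.93e-06), with 209, 187 and 182 counts in DMSO, 288, 322 and 295 at 0.5 µM and 338, 382 and 366 at 1.5 µM. Its partner DNAJC3 passed at neither dose. DNAJC27-AS1 rose (2.38 ± 0.17 and 2.47 ± 0.17, adjusted p = 6.28e-07 and 3.42e-07), and its DMSO libraries held 13.2 to 14.8 counts. The read-through symbols HSPE1-MOB4 and DNAJC25-GNG10 passed at neither dose, and HSPE1-MOB4 was at 471 in replicate 2 at 0.5 µM, where HSPE1 was high, against 846 and 690 in the other replicates.

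Pseudogene copies raise the same doubt for their parents. The 23 rows left out summed to 12578 ± 463 normalized counts in DMSO, where the members summed to 1491390, to 7888 ± 2795 at 0.5 µM and to 9659 ± 206 at 1.5 µM. Replicate 2 at 0.5 µM held fewer reads on these copies, for HSPA8 1190 against 2627 and 2347 in its fellow replicates. With its 3 copies counted in, HSP90AA1 stood at 1.51 times DMSO at 1.5 µM, as it did alone, and HSPD1 with its 4 copies at 0.755 times DMSO, against 0.757 alone.

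Co-chaperones outside the selected families were read from lists of 13 genes for HSP90 and 11 for HSP70; GRPEL1 is also in the mitochondrial list and HYOU1 in that of the endoplasmic reticulum. Of the HSP90 set, 5 were higher and 4 lower at 0.5 µM, against 4 higher and 5 lower at 1.5 µM. At either dose 69.2% were called, where 70% and 73.1% of all genes tested were. FKBP4 (FKBP52), an immunophilin of steroid receptor complexes, fell (-0.66 ± 0.03 and -0.70 ± 0.03, adjusted p = 9.11e-09 and 3.32e-09). UNC45A, a myosin chaperone that binds HSP90, rose (0.52 ± 0.05 and 0.64 ± 0.05, adjusted p = 5.41e-06 and 8.92e-07). The HSP70 set had 1 gene higher at both doses, with 4 lower at 0.5 µM and 5 lower at 1.5 µM. Its 45.5% and 54.5% called were below the shares of all genes. The exchange factors BAG1 and GRPEL1, the first cytosolic and the other mitochondrial, fell at both doses: BAG1 (-0.41 ± 0.04 and -0.52 ± 0.04, adjusted p = 6.66e-06 and 7.3e-07), GRPEL1 (-0.49 ± 0.03 and -0.52 ± 0.03, adjusted p = 1.1e-07 and 4.93e-08).

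The step between the doses was small. Between 1.5 µM and 0.5 µM, 2 members were higher and 5 lower, which is 8.97% of them against 12.7% of all genes tested (4.66% higher and 8.09% lower). The groups did not overlap for 31 members, against 33.7% of all genes. Those higher at 1.5 µM were HSPA4L (0.17 ± 0.03, adjusted p = 0.00938) and DNAJA4 (0.18 ± 0.05, adjusted p = 0.0449). The 5 lower at 1.5 µM were HSPB1 (-0.32 ± 0.05, adjusted p = 0.00318), HSPA5 (-0.20 ± 0.04, adjusted p = 0.00629), DNAJC7 (-0.27 ± 0.05, adjusted p = 0.00931), DNAJC17 (-0.45 ± 0.11, adjusted p = 0.0235) and HSPA2 (-0.23 ± 0.07, adjusted p = 0.0431). Each of the 7 also passed over DMSO at 1.5 µM with the same sign. Without the 3 libraries that held H19, which leaves 1 library at 1.5 µM, none of the 7 passed (adjusted p = 0.0815 to 0.375), although 6 of the 7 fold changes were at least as large as with all libraries and only that of DNAJC17 was smaller (-0.39). Over the 23 alternatives run, the call was lost in 12 for HSPA2, 12 for DNAJA4 and 6 for DNAJC17. It was lost in 3 for HSPA4L and in 1 each for HSPB1, HSPA5 and DNAJC7. Without replicate 2 at 0.5 µM, 6 members were higher and 11 lower.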

How the data were processed

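RNA-seq libraries of COR-L279 cells (3 per group) were deposited as 2 tables. The authors trimmed, aligned and counted reads with cutadapt, STAR and RSEM against hg19, per the submitters' processing notes; their versions were not stated. The deposited signal is a table of counts normalized by DESeq2, per the file's own name, and every value (100% within 0.001) was a whole multiple of its library's step, so whole reads were recovered. The second deposited table holds RSEM FPKM, with 2 decimals.

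The main test was limma 3.58.1 (R 4.3.3) with a mean-variance trend on log2(normalized count + 1), all 9 libraries in 1 fit, two-sided, for genes that reached a count of 10 in 3 or more libraries; Benjamini-Hochberg adjustment covered the 17514 genes tested, of which 70% were called at 0.5 µM. The pseudocount understates fold changes of low genes. The script was tested on simulated data. The normalization assumes that most genes do not change in sum, so a loss of total RNA per cell would not be seen. The 23 alternatives were pseudocounts of 0.1 and 5, no filter, a minimum of 50, FPKM, upper-quartile and TMM scaling, weighted libraries, limma with no trend, DESeq2 1.42.0 and edgeR 4.0.16 on whole reads, a fit to 6 libraries, a replicate block, and left-out libraries.

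Members, families and lists were chosen with earlier results of these data known. Symbols ending in a number and P, with or without further digits, were left out as pseudogenes. Genes named with statistics were, in each family, up to 3 that changed most among those called at 1.5 µM with a mean count of at least 100, the most abundant member, a fixed set (both HSFs, the HSP90s, main HSP70s, HSP60 and HSP10, HSPB1, J proteins of each class and all CCT genes), and up to 2 per other list; other members past the test and BAG3, HYOU1 and SEL1L were named after their values were seen. Same-numbered libraries did not pair: the correlations of their deviations from group means ran from -0.385 to 0.131. Promoter windows are RefSeq's (GRCh38.p14, 69 of 78 members matched by symbol, 17 of them with more than 1 window); no coordinate was converted from hg19. HSF1 sequence is not shown.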

Additional observations from a re-analysis of the deposited data

How the results depend on the processing

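The counts of members higher and lower over DMSO stayed within 1.5 times in all alternatives run: 21 to 26 higher and 31 to 37 lower at 0.5 µM, 21 to 28 higher and 30 to 41 lower at 1.5 µM. Keeping the 7 rows whose symbol ends in P without digits, an alternative added after the data were seen, gave 37 and 39 lower. Of 166 gene results 122 kept their direction and their side of the threshold in every alternative run. The step between the doses was less stable than either comparison with DMSO. For 1.5 µM against 0.5 µM, members higher (2) became 0 on FPKM values and without the 3 libraries that held H19, 1 under limma without trend, the fit to 6 libraries and the replicate block, 4 under DESeq2 and 10 with library weights, and ranged from 0 to 6 with 1 library left out. Members lower (5) became 1 without the 3 libraries that held H19, 3 in the fit to 6 libraries, 8 under upper-quartile scaling, 13 under DESeq2 and 17 with library weights, and ranged from 3 to 11 with 1 library left out; the cause was not tested. The replicate block gave 24 higher and 33 lower at 0.5 µM and 22 and 33 at 1.5 µM. It ended the calls of DNAJA2, DNAJC15 and DNAJC27 at 1.5 µM and of DNAJA4 and HSPA2 between the doses. The call of DNAJC27 at 1.5 µM was lost in 13 of the 23 alternatives run. The correlations that would show a pairing ran from -0.385 to 0.131.

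Directions turned only for the members below, of which DNAJB2 alone had passed the test; HSPE1-MOB4 stood at -0.21 with all libraries, and the members not called were otherwise nearer to 0. CCT2 at 0.5 µM was 0.0081 on FPKM values, 0.0259 without the 3 libraries that held H19 and -0.0467 to 0.0259 with 1 library left out, and at 1.5 µM -0.0136 to 0.0068. DNAJA1 ran from -0.0010 to 0.1015 at 0.5 µM with 1 library left out, and at 1.5 µM was -0.0094 on FPKM values and -0.0001 under upper-quartile scaling. DNAJC3 at 0.5 µM ran from -0.1038 to 0.0048. DNAJC4 at 0.5 µM was -0.0856 on FPKM values, -0.0277 under upper-quartile scaling, -0.0110 without the 3 libraries and -0.0249 to 0.0981 with 1 left out. DNAJC8 at 0.5 µM was -0.0084 with library weights and -0.0409 to 0.1297 with 1 left out. HSPE1-MOB4 at 0.5 µM was 0.1242 with library weights and -0.3992 (without 0.5 µM replicate 1, adjusted p = 0.0226) to 0.0227 with 1 left out. DNAJC30 at 1.5 µM was -0.0287 on FPKM values, -0.0202 under upper-quartile scaling, -0.0098 with library weights and -0.0286 to 0.0645 with 1 left out. DNAJB2, which rose at 1.5 µM by 0.15 ± 0.04, was at -0.0012 on FPKM values. The cause was not tested. Members under 1 FPKM rest on few reads, and small steps between doses were near the spread of 3 libraries.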
